A study of Rattus norvegicus with 6 samples.

Results

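The Rtl1-antisense miRNAs are the mature products of 5 hairpins that lie within the Rtl1 gene of the imprinted Dlk1-Dio3 domain. The 9 rows analysed here, rno-miR-127-3p, rno-miR-127-5p, rno-miR-136-3p, rno-miR-136-5p, rno-miR-431, rno-miR-433-3p, rno-miR-433-5p, rno-miR-434-3p and rno-miR-434-5p (the species prefix is left out from here on), were taken by name from the 775 miRNAs of the deposited count table, of which 454 had enough counts to test, all 9 among them. No rule on their values was used, although earlier results of these data were known when they were chosen. Small RNA libraries came from the brains of male Sprague–Dawley rats, which were 7 weeks old when purchased. All of these rats had 2-vessel occlusion (2VO), the permanent ligation of both common carotid arteries that lowers cerebral blood flow and serves as a model of vascular dementia. The 2VO group (n = 3 libraries) was given the vehicle, 0.5% CMC-Na at 5 mL/kg. The tilianin group (n = 3 libraries) was given 40 mg/kg tilianin daily in the same vehicle for 4 weeks. Tilianin is a flavonoid glycoside. The labels name the tissue only as brain, whereas the study describes its miRNA comparison as one of cortical tissue, and which region each library came from cannot be told from these sources. Nothing in the sources used here says whether a library is 1 animal or a pool, so p-values measure only the spread between these libraries, which may be technical. Sham-operated rats were not analysed here, so the effect of the occlusion itself cannot be read from these values.

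In the Dlk1-Dio3 domain, the paternal chromosome expresses protein-coding genes, including Dlk1, Rtl1 and Dio3, and the maternal chromosome expresses noncoding RNAs, including Meg3 and many miRNAs. Rtl1 derives from a retrotransposon and is needed in placenta and muscle. The miRNAs described here are transcribed from the maternal chromosome opposite to Rtl1, so they are fully complementary to its mRNA and can direct its cleavage, and like other miRNAs they can also repress mRNAs that match their seed, bases 2 to 8 from the 5′ end. Most of these miRNAs are prominent in the brain. Each hairpin is cut into a 5p and a 3p arm, and the arm that is retained by the Argonaute proteins accumulates.

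RefSeq (GRCr8) gave the mature sequences of 7 of the 9 miRNAs, shown here with the seed in capitals because the seed sets which mRNAs a miRNA can recognise. miR-127-5p and miR-136-5p had no mature entry.
miR-431: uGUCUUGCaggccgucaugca
miR-433-5p: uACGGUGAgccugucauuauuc
miR-433-3p: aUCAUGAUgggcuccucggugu
miR-127-3p: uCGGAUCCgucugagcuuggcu
miR-434-5p: aGCUCGACucaugguuugaacca
miR-434-3p: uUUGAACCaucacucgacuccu
miR-136-3p: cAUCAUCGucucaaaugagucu

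The 7 seeds were all different, and none was found in any other of the 689 listed miRNAs that had a sequence. These 7 members are therefore neighbours in the genome without being a seed family, and the seeds of miR-127-5p and miR-136-5p were not compared. The genes of the 9 members follow each other in the order Mir431, Mir433, Mir127, Mir434 and Mir136, all inside Rtl1 and all on the plus strand. The lengths of the 7 sequences were 21 to 23 bases. The longest run shared between them was 9 bases, found in both arms of miR-434 and marked in capitals in the next lines. Between arms of different hairpins the longest shared run was 5 bases.
miR-434-5p: agcucgacucauggUUUGAACCA
miR-434-3p: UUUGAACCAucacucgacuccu

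One more listed miRNA comes from the same place. The annotated gene of miR-3543 overlaps Mir434 on the opposite strand, and 22 of its 23 bases are the reverse complement of miR-434-3p, as the capitals mark.
miR-3543: cAGGAGUCGAGUGAUGGUUCAAA

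miR-3543 had 2, 8 and 2 counts in 2VO replicates 1, 2 and 3, and 2 counts in each of the tilianin libraries, too few to compare. Over the same bases miR-434-3p had 15525 to 40421 counts per library, so the 2 strands of this site differed by far more than the libraries did. No member shared identical counts in all libraries with another row.

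Across the series, libraries held 7175872 to 13198776 counts, of which 3 counts correspond to 0.227 to 0.418 CPM (counts relative to the library total), and intervals from counts cover counting error only. Levels are given as CPM after TMM scaling, which aligns the libraries on the bulk of their miRNAs. The most abundant marker of neurons, miR-124-3p, had 55804 to 98573 CPM. Of the defining oligodendrocyte markers, miR-219a-5p had 0 or 1 count in every library and miR-338-3p had 141 to 450. The most abundant miRNA of the oligodendrocyte list, miR-219b, had 260 to 768 CPM in the 2VO group and 344 to 1368 CPM in the tilianin group. Tilianin replicate 2 stood apart, since its rank correlation (Spearman) with any other library was 0.936 to 0.957, whereas the remaining 5 libraries correlated at 0.983 to 0.992 with each other. Of all tested miRNAs, 26 of 454 (5.73%) were called between the groups, by the criterion given below, and none passed adjustment in that test. Of the marker lists, 0 of 12 tested neuronal and 0 of 3 oligodendrocyte miRNAs were called. Called higher were 4 of 5 Hox-cluster, 3 of 3 choroid plexus, 1 of 2 erythroid, 1 of 5 leukocyte, 1 of 5 muscle and 1 of 1 photoreceptor or pineal miRNAs, and 1 of 1 liver miRNAs lower. Among these, miR-10a-5p had 162, 11292 and 297 CPM in tilianin replicates 1, 2 and 3. The photoreceptor or pineal call, miR-96-5p, had 9 and 73 counts in tilianin replicates 2 and 3 and 0 elsewhere. The erythroid call, miR-486, was above the 2VO range in all tilianin libraries.

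The levels of the members spanned more than 3 orders of magnitude although their genes are adjacent. miR-127-3p had 44504 ± 3389 CPM (SD over 6 libraries) and made up 84.2% of the summed level of the 9 miRNAs. Among all listed miRNAs its mean level ranked 6. miR-434-3p followed with 3284 ± 523 CPM, miR-434-5p with 2586 ± 238 CPM and miR-136-3p with 1975 ± 306 CPM. The remaining members were far lower, with miR-433-3p at 262 ± 18.7 CPM, miR-136-5p at 133 ± 22.8 CPM, miR-127-5p at 81.5 ± 22.8 CPM, miR-433-5p at 38.7 ± 6.47 CPM and miR-431 at 11.6 ± 3.38 CPM. The ranges of neighbours in this order overlapped for miR-434-3p and miR-434-5p, for miR-434-5p and miR-136-3p, and for miR-136-5p and miR-127-5p, and did not overlap for the other 5 neighbouring pairs. The mature miRNAs are of nearly the same length, so no length correction was made, and how efficiently each sequence is captured in a library was not measured. Together the 9 miRNAs held 5.52 ± 0.666% of all counts in the 2VO group and 5.11 ± 0.767% in the tilianin group (SD, n = 3 each). The spread within each group was larger than the difference of the means.

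**Figure D1:**
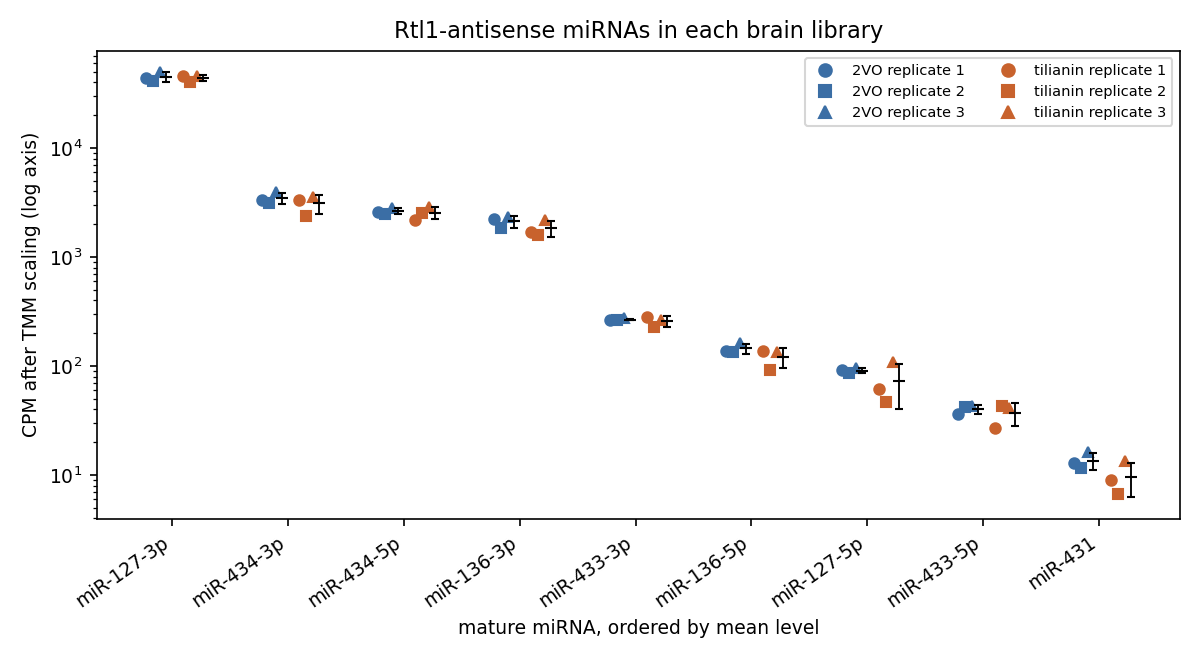
Level of each Rtl1-antisense miRNA in each library, as CPM after TMM scaling on a log axis, with miRNAs ordered by mean level. Coloured points are libraries (blue 2VO, orange tilianin) and black bars are the mean ± SD of 3 libraries; the ranges of the groups overlap for all 9 miRNAs, and tilianin replicate 2 is the lowest point for 7 of them.

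None of the 9 miRNAs differed between the tilianin and 2VO groups when judged as the study judged its miRNAs, by p below 0.05 without adjustment together with a log2 fold change beyond 1 in either direction. At this criterion edgeR's quasi-likelihood test called 26 of the 454 tested miRNAs (5.73%), 21 higher (4.63%) and 5 lower (1.1%). By unadjusted p-value alone, 33 miRNAs (7.27%) and 0 of the 9 members were below 0.05. After Benjamini-Hochberg adjustment over all tested miRNAs, 0 miRNAs passed 0.05 with this test. The Wald test of DESeq2 and the exact test of edgeR each passed 3 miRNAs, none of them a member. The adjusted p-values of the members were 0.746 to 0.950 (edgeR quasi-likelihood test). The groups overlapped for all 9 members, whereas they did not for 44 of all tested miRNAs (9.69%), 19 of them lower under tilianin (4.19%).

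miR-127-3p, the most abundant member, was at nearly the same level in both groups. Its CPM values were 43753, 41473 and 49773 for replicates 1, 2 and 3 of 2VO alone, and 45912, 40437 and 45677 for those given tilianin. Only tilianin replicate 2 lay outside the 2VO range, just below it. The log2 fold change was -0.03 (approximate standard error 0.150), with a 95% interval of -0.38 to 0.32, so a change of 1 on the log2 scale in either direction lay outside the interval. The adjusted p-value was 0.950 (edgeR quasi-likelihood test).

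The other arm of the same hairpin, miR-127-5p, was more variable in the tilianin group. Its CPM values were 91.0, 85.7 and 95.1 for 2VO alone, against 61.8, 47.0 and 108 with tilianin, again in the order of replicates 1, 2 and 3. Tilianin replicates 1 and 2 were below all 2VO libraries, and tilianin replicate 3 was above them. With a standard error of 0.314, the log2 fold change was -0.32, and the 95% interval of -1.06 to 0.42 left room for a fall of 1 on the log2 scale. Without tilianin replicate 3 the log2 fold change was -0.74 (edgeR quasi-likelihood test, unadjusted p = 0.0131), still short of the fold change criterion and with an adjusted p-value no lower than 0.300. Of all 448 miRNAs tested without tilianin replicate 3, 53 had an unadjusted p-value below 0.05. Leaving out tilianin replicate 2 instead moved the log2 fold change of miR-127-5p the other way, to -0.0783 (edgeR quasi-likelihood test, unadjusted p = 0.746). Leaving out tilianin replicate 1 gave -0.21.

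Both arms of miR-434 are abundant, and neither passed the test. For miR-434-3p the 2VO values were 3325, 3120 and 3957 CPM, and the tilianin values 3334, 2391 and 3574 CPM. Only tilianin replicate 2 lay outside the 2VO range, below it. The log2 fold change was -0.16 (standard error 0.221). For miR-434-5p the 2VO values were 2610, 2476 and 2814 CPM, and the tilianin values 2205, 2555 and 2855 CPM. Here the lowest library was tilianin replicate 1, and tilianin replicate 2 was within the 2VO range. Its log2 fold change was -0.05 (standard error 0.186).

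miR-136-3p, the main arm of its hairpin, stood at 2236, 1827 and 2310 CPM under 2VO alone and at 1706, 1589 and 2186 CPM under tilianin. The lowest tilianin libraries, replicates 1 and 2, were below all 2VO libraries, and replicate 3 was among them. The log2 fold change was -0.22 (standard error 0.211), and miR-136-5p, which lay within 135 to 163 CPM under 2VO alone and had 92.1 CPM in its lowest tilianin library, replicate 2, had -0.26 (standard error 0.221). Of the miR-433 arms, miR-433-3p ranged from 263 to 273 CPM under 2VO alone and from 227 to 281 CPM under tilianin, and miR-433-5p from 36.0 to 42.8 CPM and from 26.7 to 43.3 CPM. For both, the tilianin range enclosed the 2VO range. Their log2 fold changes were -0.05 (standard error 0.180) and -0.12 (standard error 0.236).

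miR-431, from the first hairpin in gene order and the least abundant member, had the largest point estimate of the 9. Its CPM values were 12.8, 11.6 and 16.2 for 2VO alone, against 8.91, 6.62 and 13.3 with tilianin. As for miR-127-5p and miR-136-3p, tilianin replicates 1 and 2 were below all 2VO libraries and replicate 3 was not. With a standard error of 0.310, the log2 fold change was -0.49, and it had a 95% interval of -1.22 to 0.25 (edgeR quasi-likelihood test, unadjusted p = 0.161). Its counts were 43 to 150 per library, and the lowest of these has an exact 95% Poisson interval of 31.1 to 57.9 counts. Without tilianin replicate 3 the log2 fold change was -0.80 and the unadjusted p-value 0.0315 by the same edgeR test, again short of the fold change criterion. Without tilianin replicate 2 it was -0.26 (edgeR quasi-likelihood test, unadjusted p = 0.343).

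**Figure D2:**
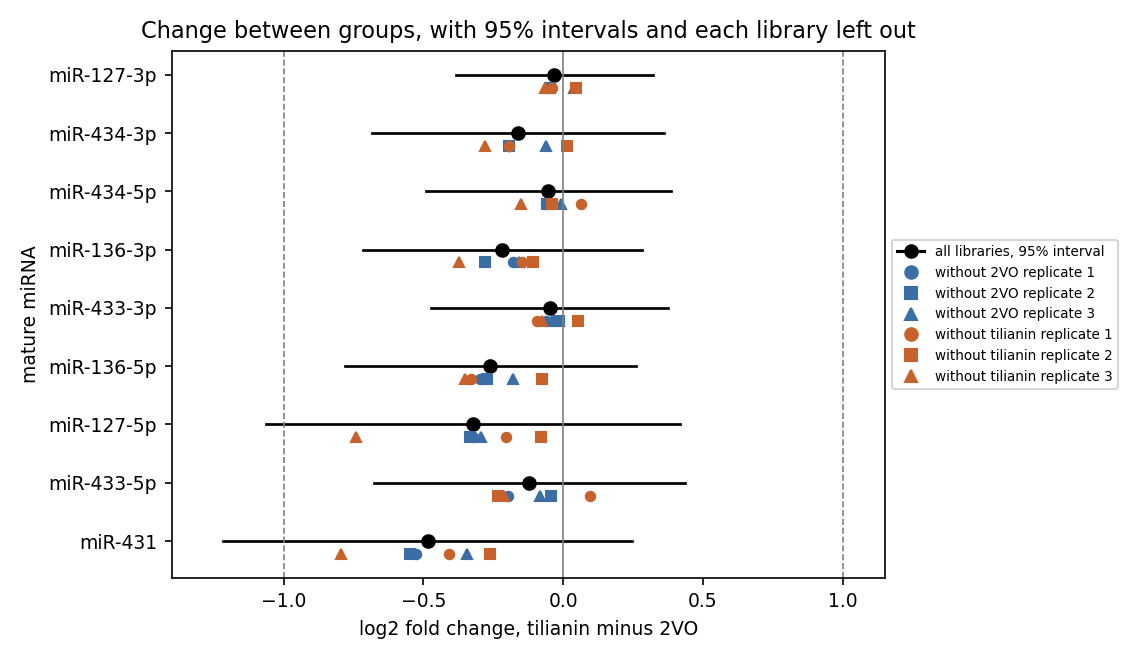
Log2 fold change (tilianin minus 2VO) of each miRNA. Black points and lines are edgeR estimates from all 6 libraries with approximate 95% intervals, coloured symbols are estimates with the named library left out, and dashed lines mark a change of 1; every interval includes 0, and only those of miR-127-5p and miR-431 reach -1.

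All 9 estimates were below 0, against 53.3% of all tested miRNAs. Their median was -0.16, beside a median of -0.03 over all tested miRNAs. The 12 tested neuronal miRNAs were all below 0 as well, with a median of -0.31, as was the 1 tested liver miRNA. All tested Hox-cluster, choroid plexus, erythroid, leukocyte, muscle and photoreceptor or pineal miRNAs were above 0, and so were 2 of 3 oligodendrocyte miRNAs. The common direction of the members rested in part on single libraries. Without tilianin replicate 2, the estimates of miR-127-3p, miR-433-3p and miR-434-3p were above 0 (0.0452, 0.0531 and 0.0150), 6 of 9 were below 0 and the median was -0.08. In that fit 48.1% of all tested miRNAs were below 0, and their median was 0.01. Without tilianin replicate 1, miR-433-5p and miR-434-5p were above 0 (0.0940 and 0.0626), and without 2VO replicate 3 miR-127-3p was (0.04). The summed share of counts, which is not TMM-scaled, had a log2 ratio of group means of -0.11, which was -6.41e-05 without tilianin replicate 2. With TMM scaling the ratio from all libraries was -0.05. When scaling used library totals, the median log2 fold change over all tested miRNAs was itself -0.09.

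In 3 of the 6 libraries all or nearly all members lay on one side of their mean, and in the other 3 they were split. Measured as log2 CPM minus the mean over the 6 libraries, tilianin replicate 2 was below 0 for 8 of 9 members, with a median deviation of -0.30, and was the lowest library for 7. miR-433-5p was its exception, with a deviation of 0.18. Tilianin replicate 1 was the lowest for the other 2 members. In 2VO replicate 3 all 9 members were above their mean, with a median deviation of 0.24 and a range of 0.06 to 0.54, and in tilianin replicate 3 all 9 were above it as well, with a median of 0.14. Below their mean were 2 of 9 in 2VO replicate 1, 4 of 9 in 2VO replicate 2 and 5 of 9 in tilianin replicate 1, where deviations ran from -0.52 to 0.10. Over the 269 miRNAs with a mean of at least 10 CPM, the median deviation was between -0.03 and 0.05 in every library.

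**Figure D3:**
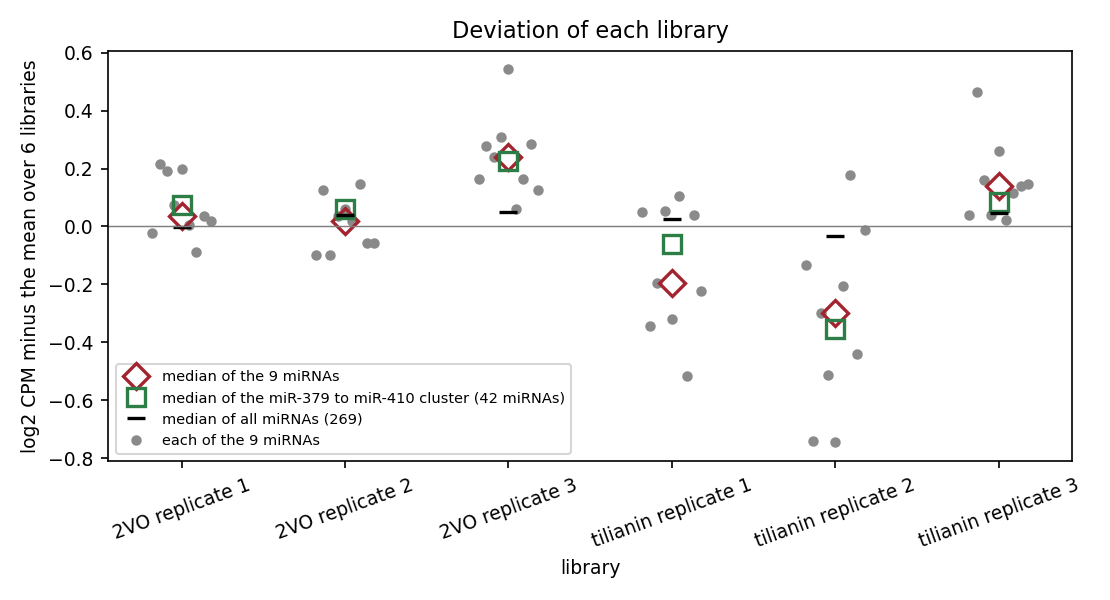
Deviation of each library from the mean over the 6 libraries, in log2 CPM. Grey points are the 9 Rtl1-antisense miRNAs, diamonds their median, squares the median of 42 miRNAs of the miR-379 to miR-410 cluster, and dashes the median of 269 miRNAs; the diamond is lowest, at -0.30, in tilianin replicate 2 and highest, at 0.24, in 2VO replicate 3.

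Other RNA moved in tilianin replicate 2 as well. The summed level of the 14 listed neuronal miRNAs, 1 of which was at 0 in all libraries, was 89764 CPM there, while it was 136703 to 169732 CPM under 2VO alone and 151637 and 166175 CPM for tilianin replicates 1 and 3. The summed level of 10 miRNAs of the Hox clusters, which are active in hindbrain and spinal cord, was 21745 CPM there, while it was 90.1 to 151 CPM under 2VO alone and 322 and 490 CPM for the other tilianin libraries. miR-10a and miR-10b carried this sum, and 5 of the 10, all from miR-196, were at 0 in every library. Higher in the same library than in any other were also the summed levels of the choroid plexus list (1077 CPM, others 120 to 348 CPM), the muscle list (2463 CPM, others 246 to 508 CPM), the erythroid list (881 CPM, others 155 to 406 CPM), the leukocyte list (1395 CPM, others 775 to 1158 CPM) and the oligodendrocyte list (1419 CPM, others 279 to 804 CPM). Of the oligodendrocyte sum in this library, miR-219b alone held 1368 CPM. The liver list, at 0.616 CPM, was lowest in this library, and the photoreceptor or pineal list was highest in tilianin replicate 3, at 9.52 CPM. The part of these differences in the low member values of tilianin replicate 2 was not tested. In such bulk libraries, fewer cells of a type and less of the RNA per cell cannot be told apart.

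The ratio of the arms within a library needs no scaling between libraries. The 3p arm dominated 3 of the 4 hairpins with both arms listed. For miR-127 the 3p arm was counted 421 to 858 times as often as the 5p arm, for miR-136 12.5 to 17.2 times and for miR-433 5.22 to 10.5 times. miR-434 was nearly balanced, and its 5p arm held 44.0, 44.3 and 41.6% of the hairpin's counts for replicates 1, 2 and 3 of 2VO alone and 39.8, 51.7 and 44.4% for those given tilianin. Tilianin replicate 2 was the one library with more counts of the 5p than of the 3p arm.

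None of the 4 arm ratios differed between the groups beyond the spread of the libraries. The log2 ratio of 5p to 3p counts for miR-127 was -8.91, -8.92 and -9.03 in the 2VO libraries and -9.53, -9.74 and -8.72 in the tilianin libraries, a difference of -0.38 with p = 0.4 in a two-sided exact permutation test. The 2VO libraries were close together, and the tilianin libraries lay on both sides of them. The differences were -0.05 for miR-136, -0.09 for miR-433 and 0.12 for miR-434, with exact permutation p-values of 0.9, 0.8 and 0.7. Adjusted over the 4 hairpins all were 0.9, and with 3 libraries against 3 this exact test cannot go below 0.1. For all 4 hairpins the SD of the log2 ratio was larger in the tilianin group, at 0.542 against 0.0678 for miR-127, 0.244 against 0.132 for miR-136, 0.518 against 0.121 for miR-433 and 0.349 against 0.0874 for miR-434 (n = 3 each), and the difference in spread was not tested. For miR-127 the difference was -0.69 without tilianin replicate 3 and -0.18 without tilianin replicate 2, the extremes over the libraries left out. Without tilianin replicate 2 the difference for miR-434 was -0.0686 and that for miR-136 0.0374. Without tilianin replicate 1 the difference for miR-433 was 0.19.

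**Figure D4:**
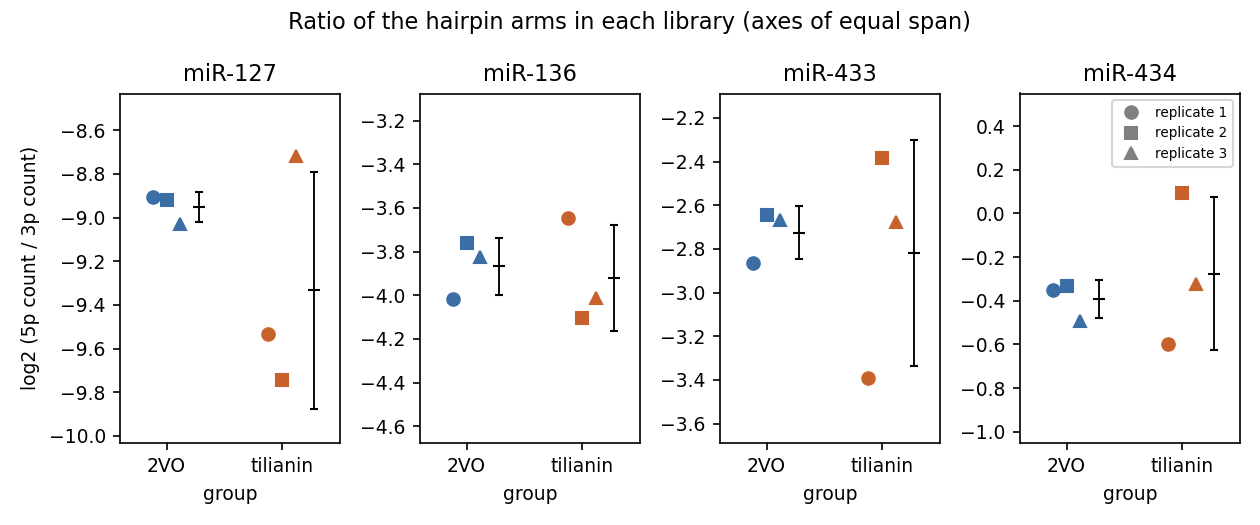
Log2 ratio of 5p to 3p counts of 4 hairpins in each library, with the mean ± SD of each group (n = 3). Each panel has its own offset and the same span of 1.6, so spreads can be compared; the tilianin libraries of miR-127 run from -9.74 to -8.72 around 2VO libraries that lie between -9.03 and -8.91.

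The rest of the domain gives the local background. The genes before Rtl1 (Mir770, Mir673, Mir493, Mir337, Mir540 and Mir665) contributed 11 listed miRNAs, of which 0 passed the criterion and 10 were below 0, with a median log2 fold change of -0.22. When tilianin replicate 1 was left out, 1 of these 11 passed the criterion, beside 34 of all 448 miRNAs tested in that fit. The most abundant of the 11, miR-337-5p, averaged 194 ± 15.8 CPM without and 141 ± 50.4 CPM with tilianin (SD, n = 3 each), with -0.46 on the log2 scale (standard error 0.298). The genes just after it, Mir341, Mir1188 and Mir370, contributed 5 miRNAs, of which 0 passed the criterion and 3 were below 0, with a median of -0.18. Both arms of miR-1188 were above 0, at 0.75 for miR-1188-5p (8 to 27 counts per library) and 0.36 for miR-1188-3p (2 to 6 counts), and the former passed the criterion when tilianin replicate 1 was left out. The most abundant of the 5 was miR-341, at 292 ± 14.9 and 257 ± 64.1 CPM (SD, n = 3 each). The others that were next in level were miR-673-3p, at 76.1 ± 6.62 and 59.7 ± 12.7 CPM, and miR-665, at 49.8 ± 3.08 and 43.4 ± 6.21 CPM, before Rtl1, and miR-370-3p, at 151 ± 26.3 and 127.4 ± 35.6 CPM, after it. None of these levels approached that of miR-127-3p.

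The large cluster from miR-379 to miR-410 lies further along the domain and includes miR-134, known for its role in dendritic spines. Of its 69 listed miRNAs, 66 were tested, 0 were called higher and 1, miR-487b-5p, was called lower, at 13 counts or fewer per library. The cluster had 0 calls in edgeR's fit with the replicate block and in DESeq2's Wald test. It had 0 after filterByExpr too, but this filter kept only 57 of its miRNAs, so miR-487b-5p may not have been retested. The cluster also had 0 calls without 2VO replicate 1, 2VO replicate 2 or tilianin replicate 2. Below 0 were 52 of the 66, and the median log2 fold change was -0.20. Its most abundant miRNA, miR-409a-5p, averaged 8045 ± 726 CPM without and 5716 ± 2020 CPM with tilianin (SD, n = 3 each), with -0.49 on the log2 scale (standard error 0.276). It was followed by miR-541-5p, with 1304 ± 43.3 and 1151 ± 179 CPM, and miR-379-5p, with 1034 ± 121 and 1030 ± 99.0 CPM. The cluster as a whole held 1.96 ± 0.124% of counts in the 2VO group and 1.53 ± 0.437% in the tilianin group. Over its 42 miRNAs with at least 10 CPM, the median deviation was -0.36 in tilianin replicate 2, 0.23 in 2VO replicate 3 and 0.08 in tilianin replicate 3, beside -0.30, 0.24 and 0.14 for the Rtl1-antisense miRNAs. The gap was widest in tilianin replicate 1, at -0.06 for the cluster and -0.20 for the Rtl1-antisense miRNAs, and in 2VO replicates 1 and 2 the medians were 0.07 and 0.06 beside 0.03 and 0.02. Without tilianin replicate 2, 44 of 65 cluster miRNAs were below 0 and their median was -0.08, beside 48.1% and 0.01 over all tested miRNAs.

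**Figure D5:**
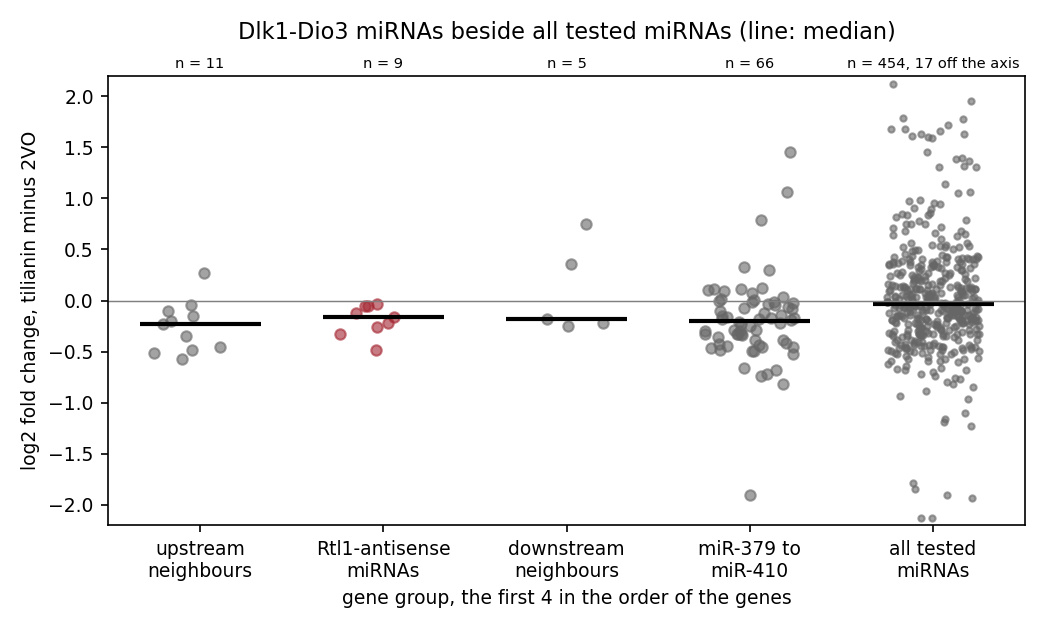
Log2 fold changes (tilianin minus 2VO) of the tested miRNAs of the domain, grouped and ordered as their genes, beside all 454 tested miRNAs. Each point is a miRNA and the line the median of its group; the medians are -0.22, -0.16, -0.18 and -0.20 for the groups of the domain, in order, and -0.03 for all tested miRNAs, of which 17 lie beyond the axis.

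Likeness across the 6 libraries was measured as the root mean square difference of log2 CPM, each centred on its own mean, among 269 miRNAs with at least 10 CPM on average. The miRNAs most like miR-127-3p were miR-485-3p of the miR-379 to miR-410 cluster (0.0710), let-7e-5p (0.0743) and the member miR-433-3p (0.0753), where the median over all 268 others was 0.290. Its own 5p arm differed by 0.369 and ranked 176. The miRNAs most like miR-136-3p were miR-380-3p (0.104) and miR-376b-3p (0.105), both of the cluster, and a miRNA predicted by the authors (0.108). Those most like miR-434-3p were the member miR-136-5p (0.0652), miR-369-5p of the cluster (0.0828) and miR-24-2-5p (0.0916). From miR-127-3p the farthest members were its own 5p arm and miR-431 (0.359), both beyond that median. All points share their libraries and scaling, so these values are a description.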

How the data were processed

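Small RNA was sequenced from 6 rat brain samples (TruSeq small RNA libraries, per the labels). The authors deposited raw counts per mature miRNA and library, 1 table of 775 rows. The submitters' processing notes name FastQC 0.11.2, Trimmomatic 0.36, cutadapt 1.14 and DESeq2 1.12.4. The aligner, miRNA reference, genome build and counting program are not given in the sources used here, so no coordinates are printed, and how reads of near-identical miRNAs were divided is unknown. Molecular identifiers are not mentioned. Groups and replicate numbers came from the sample titles, and columns were matched by the library codes of the labels (the code of 2VO replicate 3 ends in 4).

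The 454 miRNAs whose counts summed to 10 or more over the libraries were fitted with edgeR 4.0.16 (limma 3.58.1, R 4.3.3): TMM scaling, quasi-likelihood test, group as the single term, Benjamini-Hochberg adjustment over all tested. The study states the criterion (p below 0.05, absolute log2 fold change above 1) but names no test for sequencing. Standard errors are approximate: the absolute log2 fold change divided by the root of F, from which 95% intervals follow. Arm ratios were log2 of (5p count + 1) over (3p count + 1), compared with exact permutation tests (scipy 1.17.1). The code was tested on simulated counts. The alternatives were DESeq2 size factors, library totals, TMM without the members, DESeq2's Wald test (DESeq2 1.42.0), edgeR's exact test, limma-voom, other filters, a prior count of 2, an added count of 0.5 in arm ratios, a replicate block and each library left out. Text names the 9 members, other rows of their hairpins, the called and the 3 most abundant miRNAs of the cluster, the leaders of the other lists, and the nearest patterns. The members, lists and rules were chosen with earlier results of these data known, and miR-1188 and miR-6331 were added to the lists of the domain, after their values were seen, so that these leave out no listed miRNA annotated on the members' strand between Mir770 and Mir410. Marker lists covered neurons, oligodendrocytes, Hox clusters, choroid plexus, erythroid cells, leukocytes, liver, muscle, and photoreceptors or pineal.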

Additional observations from a re-analysis of the deposited data

How the results depend on the processing

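Of 90 fold changes of the 9 members under other settings, all stayed below 0 and uncalled, with unadjusted p-values of 0.0803 to 0.955. With a library left out, 48 of 54 kept their direction, 6 turned above 0 and none was called. The ranges were -0.0643 to 0.0452 for miR-127-3p, -0.0944 to 0.0531 for miR-433-3p, -0.23 to 0.0940 for miR-433-5p, -0.28 to 0.0150 for miR-434-3p, -0.15 to 0.0626 for miR-434-5p, -0.74 to -0.0783 for miR-127-5p, -0.37 to -0.11 for miR-136-3p, -0.35 to -0.0770 for miR-136-5p and -0.80 to -0.26 for miR-431. Between 0 and 2 members had an unadjusted p-value below 0.05 in those fits. The 2 were in the fit without tilianin replicate 3, where 53 of all 448 tested miRNAs were below 0.05. Arm ratio differences ranged from -0.69 to -0.18 for miR-127, -0.19 to 0.0374 for miR-136, -0.31 to 0.19 for miR-433 and -0.0686 to 0.28 for miR-434. The count of members below 0, examined after the data were seen, was 6 to 9.

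Over all miRNAs, 6 were called higher with limma-voom and 9 with the replicate block, and 7 to 29 with a library left out. Called lower were 8 when scaling used library totals, 3 in the Wald test of DESeq2, 3 in limma-voom and 2 after filterByExpr, and 2 to 5 with a library left out. Unadjusted p-values below 0.05 numbered 17 with limma-voom, 17 with the replicate block and 9 to 53 with a library left out, and adjusted ones 3 with DESeq2's Wald test, 3 with edgeR's exact test and 0 to 4 with a library left out. The cause was not tested. Between libraries of the same replicate number, deviations from group means had correlations of -0.121, 0.00917 and 0.297. Each group mean rests on only 3 libraries, so these values cannot settle whether the libraries were paired. With the replicate block 0 members were called. Of the members, miR-431 had the fewest counts, 43 to 150 per library, so counting error weighs most on it. The standard error of miR-127-5p, at 305 to 1110 counts, was nearly the same (0.314 against 0.310), with 3 libraries a group.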
